A study of Mus musculus with 22 samples.

Results

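The Myc network is a set of transcription factors that share a basic helix-loop-helix leucine zipper and meet at the partner protein Max. The 10 genes described here are Myc, Mycn and Mycl (the Myc family), Max, the Max-binding repressors Mxd1, Mxi1 (also called Mxd2), Mxd3, Mxd4 and Mnt, and Mga. They were chosen by their role in the network and by their levels over the same tumour groups that are compared here, out of 48440 gene IDs in the count table. The contrasts of the 10 genes are therefore given as a description with no p-value, and tests are given only for other genes. All 10 were found and all 10 passed the filter on low counts, which 18929 genes passed.

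RNA was sequenced from 22 mouse tumours, all labelled as tumour tissue of C57BL/ strains, the number after the stroke increasing by 1 from sample to sample in the labels. The combined tumours carried SS18-SSX+/- and Snf5-/- (8 libraries), in 4 of them with Myf5Cre and in 4 with TATCre. The Snf5-null tumours were labelled SNF5-/- (8 libraries), 3 with Myf5Cre and 5 with TATCre. The SS18-SSX tumours were labelled SS18-SSX+/- (6 libraries), 3 with Myf5Cre and 3 with no Cre source stated. SS18-SSX is the fusion oncogene of synovial sarcoma, and Snf5 is the older name of Smarcb1, a subunit of the SWI/SNF (BAF) remodelling complex that the fusion also joins. Myf5Cre is driven by a gene of myogenic progenitors, and TATCre is a Cre protein made to enter cells. Tumour tissue holds host stroma and blood cells beside the tumour cells. Animal ages are not given in the labels, nor do the labels state that each library came from a separate animal, and a pair of Snf5-null TATCre libraries, N43L and N43R, carry one tag number. Spreads and p-values therefore measure only how these samples differ, and technical differences can be among them. The descriptions number the SS18-SSX tumours in other series than the rest, and the genotype of those tumours cannot be told apart from the series.

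A Myc family protein paired with Max binds the E-box, whose strongest form is CACGTG, and recruits coactivators. The Mxd proteins and Mnt compete for Max and for the same sites and bring the Sin3 corepressor, while Mga also binds Max and is a subunit of a variant Polycomb complex. MYC has been reported to bind SMARCB1 directly, in human cells. MYCN drives neuroblastoma and is otherwise a gene of embryonic progenitors.

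The promoters of the network genes are shown first, because the levels below differ most in Mycn and because Myc and Max proteins bind the E-box. RefSeq promoter sequences (GRCm38.p6), running from 250 bases before to 50 bases after a start, were matched for 9 of the 10 genes, with 11 promoters among them, and Myc was not matched. In the sequence of Mycn, capitals mark TTTNGCGC, a motif of the E2F type searched on both strands. Its first bases lay at positions -183, -179 and -168 from the start, and the match at -179 is on the other strand and overlaps the match at -183. Of all 32851 promoters of this length 1.38% held this motif, and 1 of the 11 promoters of the network did.
Mycn promoter (chr12:12941787-12942086, minus strand, written along the gene): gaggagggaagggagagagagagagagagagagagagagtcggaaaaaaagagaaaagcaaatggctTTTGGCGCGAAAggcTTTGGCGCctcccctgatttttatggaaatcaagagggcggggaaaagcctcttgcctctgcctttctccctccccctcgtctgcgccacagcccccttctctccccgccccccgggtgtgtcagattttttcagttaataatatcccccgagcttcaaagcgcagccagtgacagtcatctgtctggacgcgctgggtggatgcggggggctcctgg
The E-box CACGTG, which reads the same on both strands, was in 3 of the 11 promoters and in 7.15% of all promoters. In the 3 sequences that follow, capitals mark the E-box, which began at -3 in Max, -219 in Mxd4 and -123 in Mnt.
Max promoter (chr12:76962199-76962498, minus strand, written along the gene): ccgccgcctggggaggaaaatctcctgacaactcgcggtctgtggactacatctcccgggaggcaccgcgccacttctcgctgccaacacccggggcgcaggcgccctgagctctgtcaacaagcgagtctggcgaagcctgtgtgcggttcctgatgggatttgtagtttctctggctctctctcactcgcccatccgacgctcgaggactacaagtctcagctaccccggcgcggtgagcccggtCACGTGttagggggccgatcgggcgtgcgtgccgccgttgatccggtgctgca
Mxd4 promoter (chr5:34187661-34187960, minus strand, written along the gene): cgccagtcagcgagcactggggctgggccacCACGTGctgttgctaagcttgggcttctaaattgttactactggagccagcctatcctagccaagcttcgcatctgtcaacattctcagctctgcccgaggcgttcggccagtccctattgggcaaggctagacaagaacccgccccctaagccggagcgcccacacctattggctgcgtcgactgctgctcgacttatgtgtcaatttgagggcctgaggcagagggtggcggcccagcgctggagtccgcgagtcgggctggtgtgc
Mnt promoter (chr11:74830674-74830973, plus strand): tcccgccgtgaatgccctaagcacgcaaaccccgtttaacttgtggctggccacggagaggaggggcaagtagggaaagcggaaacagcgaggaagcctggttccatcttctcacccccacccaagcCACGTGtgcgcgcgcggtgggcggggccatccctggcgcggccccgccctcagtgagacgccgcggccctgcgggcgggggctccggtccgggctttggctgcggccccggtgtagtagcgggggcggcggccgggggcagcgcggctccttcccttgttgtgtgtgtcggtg
TATAAA was in 1 of the 11 promoters, that of Mycl, at -8, and in 13.6% of all promoters. A match of letters describes the sequence and does not show that a factor binds there.

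The libraries held 14834030 to 18062578 counts in combined, 16059420 to 21807838 in Snf5-null and 8642648 to 25177722 in SS18-SSX tumours. Smarcb1 was lower in every library labelled Snf5-/- than in any SS18-SSX library. Its CPM (a gene's counts scaled to a common library size) were 0.909 to 3.66 in combined and 10.6 to 26.9 in Snf5-null libraries. They were 47.1 to 111 in SS18-SSX libraries. Combined and Snf5-null libraries share the Snf5-/- label, yet their Smarcb1 ranges did not overlap. The reason for this difference was not tested. Tle1, a diagnostic marker of human synovial sarcoma, was at 159 to 221 CPM in combined, 27.5 to 46.7 in Snf5-null and 207 to 398 in SS18-SSX tumours. Over all genes combined TATCre N49, Snf5-null TATCre N1 and SS18-SSX Myf5Cre N381 were least like the other libraries of their group, with Pearson r of log2 values of 0.855 to 0.892. Snf5-null Myf5Cre N30 (r of 0.958 and 0.951, against 0.987 between N31 and N33) and SS18-SSX library A (0.925 and 0.91, against 0.975 between B and N2) also differed more from their group than the other libraries did from each other.

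By genotype mean Myc was highest in Snf5-null, intermediate in combined and lowest in SS18-SSX tumours. Myc (ENSMUSG00000022346, chromosome 15, 61985391 to 61990374, plus strand, GRCm38) had 27.9, 33.4, 43.1 and 42.5 CPM in the combined Myf5Cre libraries and 31.5, 26.1, 30.6 and 36.8 CPM in the combined TATCre libraries. It had 54.1, 99.7 and 90.6 CPM in the Snf5-null Myf5Cre libraries and 81.9, 27.8, 17.6, 20.5 and 46.9 CPM in the Snf5-null TATCre libraries. It had 8.73, 11 and 8.19 CPM in the SS18-SSX Myf5Cre libraries and 8.75, 8.25 and 4.42 CPM in those with no Cre stated. Every combined and Snf5-null library was above every SS18-SSX library, and the combined range lay inside the wide Snf5-null range. Among TATCre libraries the median was 27.8 CPM in Snf5-null and 31 CPM in combined tumours.

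The log2 fold change of Myc was 2.05 ± 0.31 (SE) for combined against SS18-SSX tumours, with means of 34 ± 6.36 and 8.23 ± 2.14 CPM (SD, n = 8 and 6). For Snf5-null against SS18-SSX tumours it was 2.79 ± 0.32, with means of 54.9 ± 32.5 and 8.23 ± 2.14 CPM (n = 8 and 6). These comparisons share the SS18-SSX libraries. For combined against Snf5-null tumours the value was -0.73 ± 0.27, a smaller difference. It was -1.15 ± 0.4 among Myf5Cre libraries, whose ranges did not overlap, and -0.32 ± 0.36 among TATCre libraries, whose ranges did. Without Snf5-null TATCre N1 the pooled value was -0.44, and over all single libraries left out it ran from -0.98 to -0.44. The spread within the Snf5-null TATCre group reached from 17.6 CPM in N43L to 81.9 CPM in N1, so the order of that group's mean of 39 ± 26.6 CPM (n = 5) among the groups is not fixed by its libraries. Within the Snf5-null genotype Myc differed by 1.07 ± 0.38 on the log2 scale for Myf5Cre against TATCre, with overlapping ranges. The Snf5-null Myf5Cre mean of 81.5 ± 24.1 CPM (n = 3) stood above the combined Myf5Cre mean of 36.8 ± 7.39 (n = 4), the combined TATCre mean of 31.2 ± 4.4 (n = 4) and the SS18-SSX means of 9.32 ± 1.52 and 7.14 ± 2.37 (n = 3 each).

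Pvt1, the noncoding RNA gene next to Myc, showed the same order of means, with 13.2 ± 3.64 CPM in combined, 24.3 ± 8.8 in Snf5-null and 4.37 ± 2.98 in SS18-SSX tumours (SD, n = 8, 8 and 6). It was higher in combined than in SS18-SSX tumours (log2 fold change 1.63 ± 0.39, adjusted p = 0.00257, edgeR quasi-likelihood test with Benjamini-Hochberg adjustment over all tested genes, used for every adjusted p here). It was also higher in Snf5-null than in SS18-SSX tumours (2.49 ± 0.4, adjusted p = 8.06e-05). The difference between combined and Snf5-null tumours was close to the adjusted p threshold for a call (-0.86 ± 0.35, adjusted p = 0.0456). It missed that threshold when any of 11 single libraries was left out, with an adjusted p of up to 0.114.

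**Figure D1:**
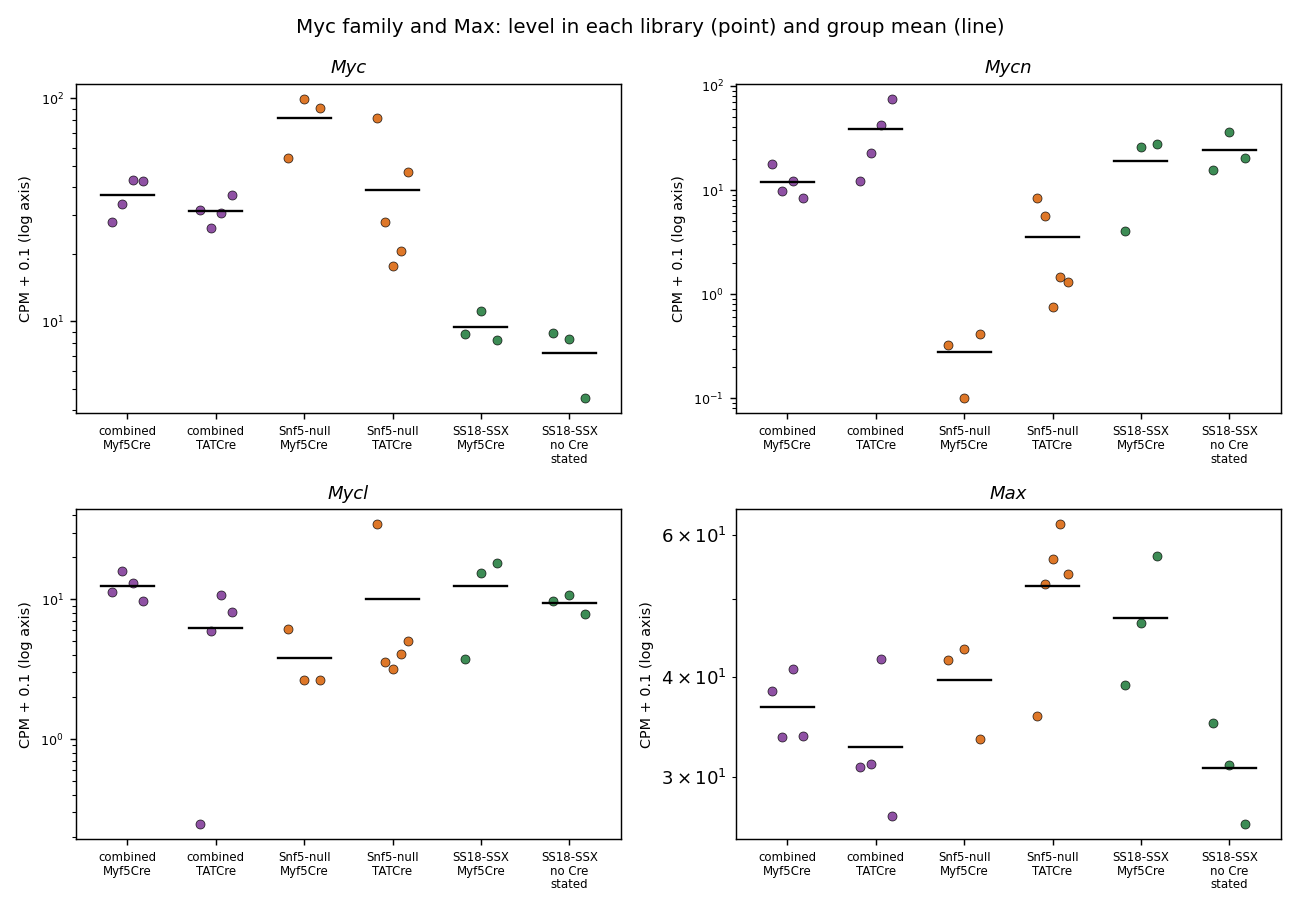
CPM of Myc, Mycn, Mycl and Max in each library (points) by genotype and Cre group, with the group mean as a line; the axes are logarithmic, with 0.1 added to each value. Myc stands at 4.42 to 11 CPM in SS18-SSX libraries and at 17.6 CPM or more in all others, while Mycn is at 8.25 CPM or less in every Snf5-null library.

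Mycn showed another pattern: it was high in both groups of tumours that carry the fusion and low in Snf5-null tumours. Mycn (ENSMUSG00000037169, chromosome 12, 12936093 to 12941914, minus strand) had 17.5, 9.75, 12.2 and 8.3 CPM in the combined Myf5Cre libraries and 12.1, 22.4, 42.4 and 75.3 CPM in the combined TATCre libraries. It had 0.226, 0 and 0.313 CPM in the Snf5-null Myf5Cre libraries and 8.25, 5.57, 0.661, 1.37 and 1.22 CPM in the Snf5-null TATCre libraries. It had 3.92, 25.9 and 27.4 CPM in the SS18-SSX Myf5Cre libraries and 15.3, 35.9 and 20.4 CPM in those with no Cre stated. The lowest combined library, at 8.3 CPM, was just above the highest Snf5-null library, at 8.25 CPM, and SS18-SSX N381 lay below Snf5-null TATCre N1 and N49. The library at 0 (Snf5-null Myf5Cre N31) had 0 counts, which allow a level of up to 0.149 CPM (3 counts, counting error only).

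The log2 fold change of Mycn for combined against Snf5-null tumours was 4.76 ± 0.7, or 27.2-fold, with means of 25 ± 23.1 and 2.2 ± 3.03 CPM (SD, n = 8 each). Genotype contrasts average the Cre groups on the log2 scale, so they need not match the ratio of means over all libraries. The log2 fold change was 6.05 ± 1.15 among Myf5Cre libraries, where 3 Snf5-null libraries held at most 5 counts each, and 3.48 ± 0.77 among TATCre libraries. The ranges did not overlap in either. Leaving out any single library moved the pooled value between 4.31 and 5.14. For Snf5-null against SS18-SSX tumours the value was -4.77 ± 0.72, with means of 2.2 ± 3.03 and 21.5 ± 11 CPM (n = 8 and 6). Between combined and SS18-SSX tumours it was 0 ± 0.56 on the log2 scale (means of 25 ± 23.1 and 21.5 ± 11 CPM), and an SE of this size leaves room for a difference of 1 log2 unit.

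Mycn also varied with Cre label inside the Snf5-null genotype. It averaged 0.179 ± 0.161 CPM in Snf5-null Myf5Cre and 3.41 ± 3.34 CPM in Snf5-null TATCre tumours (SD, n = 3 and 5), a log2 difference of -4.24 ± 1.06, and the ranges did not overlap. In combined tumours it averaged 11.9 ± 4.06 CPM with Myf5Cre and 38.1 ± 27.9 CPM with TATCre (n = 4 each), a difference of -1.67 ± 0.78 with overlapping ranges. In order of group means Mycn ran from combined TATCre (38.1 CPM) over SS18-SSX with no Cre stated (23.9), SS18-SSX Myf5Cre (19.1), combined Myf5Cre (11.9) and Snf5-null TATCre (3.41) to Snf5-null Myf5Cre (0.179). The first 4 overlapped one another, and the last did not overlap any group.

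Mycl was low in most tumours, and its ranges overlapped between all 3 genotypes. Mycl (ENSMUSG00000028654, chromosome 4, 122995652 to 123002485, plus strand) had 11.3, 15.8, 13 and 9.57 CPM in combined Myf5Cre and 0.146, 5.86, 10.7 and 8.04 CPM in combined TATCre libraries. It had 6.04, 2.54 and 2.56 CPM in Snf5-null Myf5Cre and 34.4, 3.48, 3.08, 3.99 and 4.93 CPM in Snf5-null TATCre libraries. SS18-SSX libraries ran from 3.67 over a median of 10.1 to 18 CPM. The highest and lowest values of all 22 libraries belonged to 2 of those that stand apart from their group, Snf5-null TATCre N1 and combined TATCre N49. Combined against Snf5-null tumours gave a log2 fold change of 0.53 ± 0.61, and 1.28 without Snf5-null TATCre N1. Among Myf5Cre libraries it was 1.74 ± 0.96 and the ranges did not overlap, while among TATCre libraries it was -0.68 ± 0.81 with overlapping ranges. For combined against SS18-SSX tumours it was -0.29 ± 0.64. Snf5-null against SS18-SSX tumours gave -0.82 ± 0.65, and -1.51 without Snf5-null TATCre N1 and -1.69 with Myf5Cre libraries alone.

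Levels of different genes can be compared only per length, so the 3 family genes were also expressed as CPM per kilobase of annotated exon and as shares of their sum. Myc made up 59.1 ± 15.1% of this sum in combined, 88.1 ± 8.74% in Snf5-null and 28.7 ± 16.6% in SS18-SSX tumours (SD, n = 8, 8 and 6). Mycn made up 30.3 ± 17% in combined, 3.65 ± 4.44% in Snf5-null and 50 ± 15.7% in SS18-SSX tumours. Mycl made up 10.6 ± 6.27%, 8.21 ± 6.07% and 21.4 ± 4.68% in the same order. Myc was thus the main family transcript in every Snf5-null library, at 73.2% or more, and Mycn in 5 of the 6 SS18-SSX libraries, the exception being N381 with 60.5% Myc. Combined tumours held both: Mycn was above Myc in TATCre libraries 78777 (48.1% Mycn, 42% Myc) and 78780 (59.5% Mycn, 35.3% Myc) and below it in the other 6.

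The sum of the 3 genes was 22.4 ± 7.33 CPM per kilobase in combined, 22.8 ± 13.2 in Snf5-null and 12.2 ± 4.5 in SS18-SSX tumours (SD, n = 8, 8 and 6). It ran from 15.3 to 38.4 in combined, 7.45 to 41.2 in Snf5-null and 5.31 to 16.5 in SS18-SSX libraries, so all 3 ranges overlapped. By Cre label the order differed, with 20.2 ± 1.93 in combined and 31 ± 8.38 in Snf5-null tumours among Myf5Cre libraries (n = 4 and 3) and 24.6 ± 10.4 in combined and 17.8 ± 13.8 in Snf5-null tumours among TATCre libraries (n = 4 and 5).

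**Figure D2:**
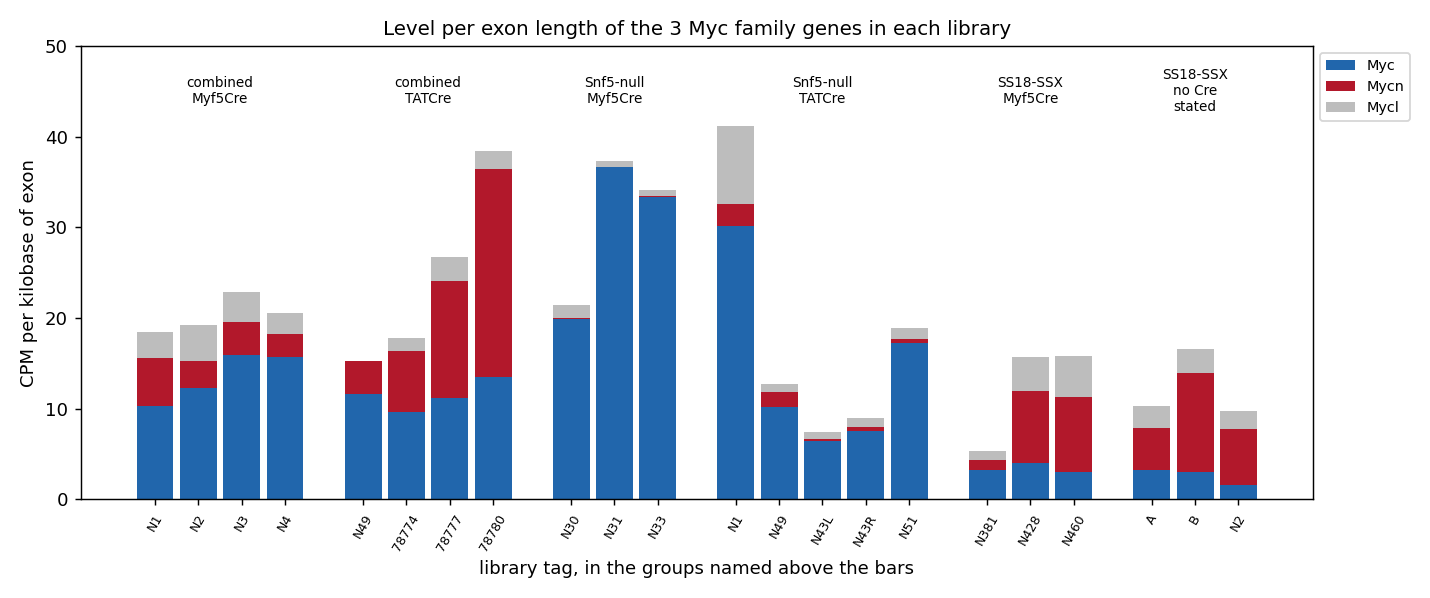
Stacked bars of Myc, Mycn and Mycl in CPM per kilobase of exon, 1 bar per library, grouped by genotype and Cre label. Myc is the largest portion of every Snf5-null bar (73.2% or more), SS18-SSX bars are low with Mycn the larger portion in 5 of 6, and combined bars hold both genes.

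Max, the shared partner, had the smallest spread within groups of the 10 genes. Max (ENSMUSG00000059436, chromosome 12, 76937269 to 76962201, minus strand) ran from 26.7 over a median of 33.6 to 42 CPM in combined, from 33.3 over 47.7 to 61.8 CPM in Snf5-null and from 26.1 over 36.9 to 56.4 CPM in SS18-SSX libraries. The ranges of all 3 genotypes overlapped. Combined against Snf5-null tumours gave a log2 fold change of -0.39 ± 0.14, with -0.11 ± 0.21 among Myf5Cre and -0.67 ± 0.18 among TATCre libraries. Over all single libraries left out the pooled value ran from -0.59 to -0.29. The log2 fold change was -0.14 ± 0.15 for combined against SS18-SSX and 0.25 ± 0.15 for Snf5-null against SS18-SSX tumours. The last was -0.24 with Myf5Cre libraries alone and 0.2 to 0.48 over all single libraries left out. Within groups the pooled SD of log2 CPM was 0.25 for Max, against 0.55 for Myc, 1.14 for Mycn and 1.4 for Mycl.

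Among the Max-binding repressors, Mxd1 was lowest in combined tumours. Mxd1 (ENSMUSG00000001156, chromosome 6, 86647042 to 86669161, minus strand), known from differentiating cells of blood and skin, had 18.5, 11.7, 8.69 and 12.1 CPM in combined Myf5Cre and 12.8, 11.5, 10.2 and 12.4 CPM in combined TATCre libraries. It had 24.5, 63.8 and 48.3 CPM in Snf5-null Myf5Cre and 13.1, 12.5, 20.9, 24.5 and 13.7 CPM in Snf5-null TATCre libraries. It had 28.8, 34.4 and 20.2 CPM in SS18-SSX Myf5Cre libraries and 22, 17.5 and 14.7 CPM in those with no Cre stated. Among Myf5Cre libraries every combined value lay below every Snf5-null and SS18-SSX value. Among TATCre libraries the combined and Snf5-null values overlapped.

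The log2 fold change of Mxd1 was -1.18 ± 0.22 for combined against Snf5-null, -0.87 ± 0.23 for combined against SS18-SSX and 0.31 ± 0.24 for Snf5-null against SS18-SSX tumours. For combined against Snf5-null tumours it was -1.84 ± 0.33 among Myf5Cre and -0.53 ± 0.29 among TATCre libraries. Within the Snf5-null genotype Mxd1 averaged 45.5 ± 19.8 CPM with Myf5Cre and 16.9 ± 5.45 CPM with TATCre (SD, n = 3 and 5), a log2 difference of 1.43 ± 0.31, with both ranges meeting at 24.5 CPM. Summed leucocyte markers were also higher in Snf5-null than in combined tumours. They were at 63.6 to 454 CPM in combined, 1510 to 6380 in Snf5-null and 62.7 to 487 in SS18-SSX libraries. Between the SS18-SSX and combined tumours, where Mxd1 also differed, the leucocyte sums overlapped, with medians of 218 and 246 CPM. By Cre label within the Snf5-null genotype, their medians were 4110 CPM with Myf5Cre and 4000 CPM with TATCre. The part of leucocytes in the Mxd1 values was not tested.

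Mxd3 ran the other way and was highest in combined tumours. Mxd3 (ENSMUSG00000021485, chromosome 13, 55325168 to 55329823, minus strand), described in proliferating progenitors, had 18, 24.6, 74 and 48.2 CPM in combined Myf5Cre and 16.5, 29.4, 89 and 42.8 CPM in combined TATCre libraries. It had 11.4, 14.7 and 19.9 CPM in Snf5-null Myf5Cre and 16.4, 13.2, 6.66, 6.34 and 9.22 CPM in Snf5-null TATCre libraries. It had 1.59, 11.8 and 20.5 CPM in SS18-SSX Myf5Cre libraries and 13.1, 48.5 and 23.9 CPM in those with no Cre stated. The combined TATCre libraries lay just above all Snf5-null TATCre libraries (16.5 and 16.4 CPM at the nearest), and the other ranges overlapped. The annotated exons of Mxd3 share 105 bases (4.4%) with Prelid1 on the other strand, a gene with 34925 counts over all libraries against 9241 for Mxd3. The sources used here do not say whether counting used strand, so reads from these bases could belong to either gene.

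In log2 fold change Mxd3 stood at 1.76 ± 0.47 for combined against Snf5-null, 1.25 ± 0.5 for combined against SS18-SSX and -0.51 ± 0.49 for Snf5-null against SS18-SSX tumours. Over all single libraries left out, combined against SS18-SSX tumours gave 0.96 to 1.61. The value was 1.17 with relative log expression scaling and with DESeq2, and 1.73 with Myf5Cre libraries alone. For Snf5-null against SS18-SSX tumours the value was 0.48 with Myf5Cre libraries alone. Summed markers of dividing cells were at 1180 to 3990 CPM in combined, 475 to 2220 in Snf5-null and 265 to 1700 in SS18-SSX libraries. The combined libraries with the most Mxd3, TATCre 78777 and Myf5Cre N3, also had the highest marker sums of their groups (3990 and 3280 CPM), and SS18-SSX N381, with the least Mxd3, had the lowest of all (265 CPM). The part of dividing cells in the Mxd3 values was not tested.

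Mxi1 was higher in combined and in Snf5-null tumours than in SS18-SSX tumours. Mxi1 (ENSMUSG00000025025, chromosome 19, 53310518 to 53375810, plus strand) ran from 46.1 over a median of 69 to 118 CPM in combined, from 45.5 over 57.6 to 97 CPM in Snf5-null and from 30.6 over 38.8 to 70.1 CPM in SS18-SSX libraries. The ranges of all 3 genotypes overlapped. The log2 fold change was 0.72 ± 0.17 for combined against SS18-SSX and 0.49 ± 0.17 for Snf5-null against SS18-SSX tumours, and the second was -0.15 ± 0.25 among Myf5Cre libraries alone. For combined against Snf5-null tumours it was 0.23 ± 0.16 in all, 0.76 ± 0.24 among Myf5Cre and -0.3 ± 0.21 among TATCre libraries. Within the SS18-SSX genotype Mxi1 averaged 53.8 ± 14.5 CPM with Myf5Cre and 32.7 ± 2.21 CPM with no Cre stated (SD, n = 3 each), and these ranges did not overlap.

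Mxd4, a Mxd factor of resting and differentiated cells, was the most abundant of the repressors per length in Snf5-null and SS18-SSX tumours. Mxd4 (ENSMUSG00000037235, chromosome 5, 34173883 to 34187720, minus strand) ran from 89.9 over a median of 115 to 186 CPM in combined, from 99.8 over 152 to 205 CPM in Snf5-null and from 120 over 171 to 265 CPM in SS18-SSX libraries. Per kilobase it averaged 14.4 CPM in combined, 18 in Snf5-null and 20.7 in SS18-SSX tumours, against 18.1, 5.16 and 8.4 for Mxd3 in the same order. The log2 fold change was -0.53 ± 0.19 for combined against SS18-SSX tumours, and -0.65 to -0.34 over all single libraries left out. It was -0.25 ± 0.18 for combined against Snf5-null and -0.28 ± 0.19 for Snf5-null against SS18-SSX tumours.

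Mnt, the broadly expressed repressor, differed more between the SS18-SSX groups than between genotypes. Mnt (ENSMUSG00000000282, chromosome 11, 74830920 to 74845725, plus strand) had 23.1, 16.6 and 22 CPM in SS18-SSX Myf5Cre libraries and 43.4, 53.3 and 33.2 CPM in those with no Cre stated. The ranges did not overlap and the log2 difference was -1.07 ± 0.34, between groups that also differ in number series. Combined libraries ran from 14.2 over 18.6 to 37.4 CPM and Snf5-null libraries from 14.5 over 24.6 to 36.3 CPM. The genotype differences were -0.27 ± 0.21 for combined against Snf5-null, -0.49 ± 0.22 for combined against SS18-SSX and -0.22 ± 0.22 for Snf5-null against SS18-SSX tumours. Among Myf5Cre libraries Snf5-null against SS18-SSX tumours ran the other way, at 0.62 ± 0.33 with ranges that did not overlap. Combined against Snf5-null tumours was -0.63 ± 0.31 among Myf5Cre and 0.09 ± 0.27 among TATCre libraries. Over all single libraries left out, combined against Snf5-null tumours ran from -0.52 to -0.17. Combined against SS18-SSX tumours ran from -0.62 to -0.38.

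Mga, which can both repress through its Polycomb complex and pair with Max, overlapped between all 3 genotypes. Mga (ENSMUSG00000033943, chromosome 2, 119897228 to 119969581, plus strand) ran from 189 over a median of 256 to 280 CPM in combined, from 163 over 231 to 311 CPM in Snf5-null and from 190 over 294 to 393 CPM in SS18-SSX libraries. The log2 fold changes were 0.01 ± 0.15, -0.18 ± 0.16 and -0.2 ± 0.16 for combined against Snf5-null, combined against SS18-SSX and Snf5-null against SS18-SSX tumours. The first was -0.1 with relative log expression scaling and with DESeq2. Among Myf5Cre libraries alone the ranges did not overlap, with -0.29 ± 0.22 for combined against Snf5-null and -0.48 ± 0.22 for combined against SS18-SSX tumours. Per kilobase Mga averaged 15.8, 15.2 and 18.2 CPM in combined, Snf5-null and SS18-SSX tumours.

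**Figure D3:**
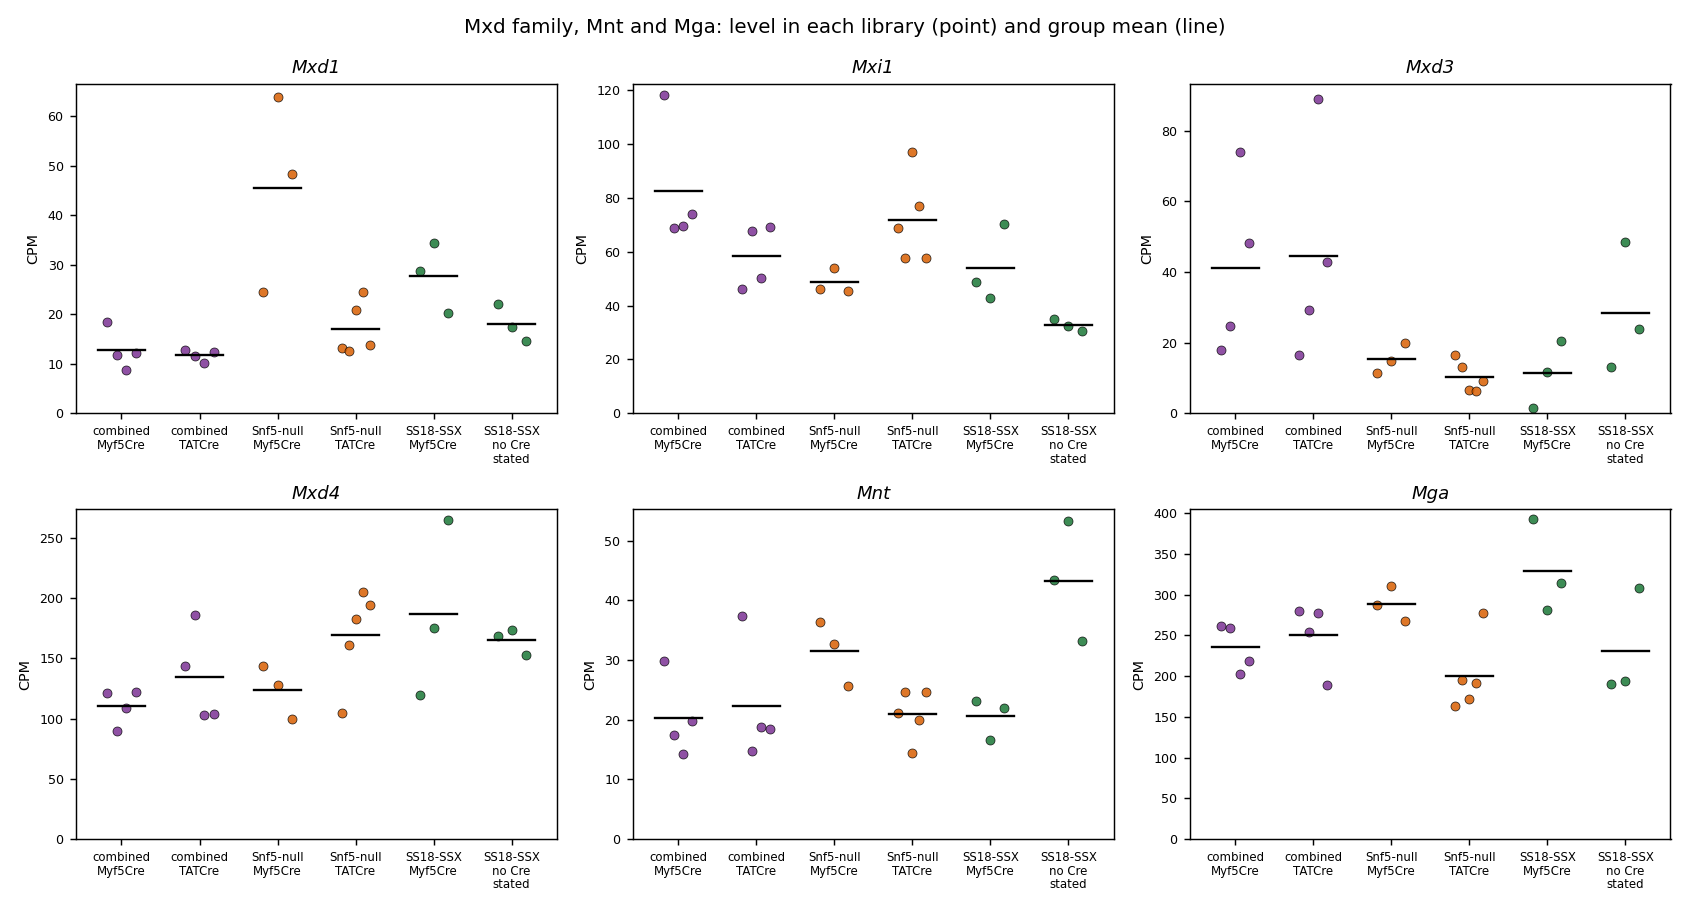
CPM of Mxd1, Mxi1, Mxd3, Mxd4, Mnt and Mga in each library (points) by genotype and Cre group, with group means as lines on linear axes that start at 0. Mxd1 is lowest in the combined groups (8.69 to 18.5 CPM), and Mxd3 reaches 74 and 89 CPM in combined libraries.

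Set side by side per length, Max-binding repressors outweighed Myc family transcripts in all libraries but 1. The sum of the 4 Mxd genes and Mnt was 49.2 ± 8.6 CPM per kilobase in combined, 41.7 ± 3.54 in Snf5-null and 45.6 ± 11 in SS18-SSX tumours (SD, n = 8, 8 and 6). The ratio of the Myc family sum to this repressor sum was 0.462 ± 0.158 in combined, 0.563 ± 0.353 in Snf5-null and 0.264 ± 0.0724 in SS18-SSX tumours. It exceeded 1 in a single library, Snf5-null TATCre N1, at 1.15, and was lowest in Snf5-null TATCre N43L, at 0.167. Max itself was at 9.62 ± 1.48 CPM per kilobase in combined, 13.1 ± 2.84 in Snf5-null and 10.8 ± 3.07 in SS18-SSX tumours. These ratios compare transcripts and say nothing of protein. They use the length of all annotated exons, 2717 bases for Myc, whose longest transcript has 2338. Among the repressors this gap ran from 4627 against 4590 for Mnt to 8483 against 4627 for Mxd4. Ratios with transcript lengths are not given here, and the single value above 1 may depend on this choice.

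Of all tested genes 29.1% were called higher and 20.5% lower in combined against Snf5-null tumours. In combined against SS18-SSX tumours 23.1% and 21.9% of all genes were called, and in Snf5-null against SS18-SSX tumours 22.3% and 25.9%. Calls are not counted for the 10 network genes, for the reason given at the start. The genotype ranges did not overlap for 1 gene in each comparison: Mycn in combined against Snf5-null (9.33% of all genes), Myc in combined against SS18-SSX (8.38%) and Myc in Snf5-null against SS18-SSX tumours (18.3%). Because the same contrasts were used to choose the genes, nothing is read from these counts. The median log2 fold change of the 10 genes was -0.12, -0.16 and -0.21 in this order, beside 0.23, -0.09 and -0.06 over all tested genes.

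The median of 0.23 over all tested genes in combined against Snf5-null tumours depended on scaling: it was 0.12 with relative log expression scaling and 0.074 with DESeq2. The share of calls that were higher was 58.7%, against 51.2% and 52%, and 46.1% without the filter on low counts. That share was 44.9% with N31 and N33 summed, 44.7% to 45.8% without 1 Snf5-null Myf5Cre library, 48.2% to 49.3% without 1 SS18-SSX library, and 49% and 47.8% without combined Myf5Cre N1 and N4. It was 42% and 40.7% with Myf5Cre or TATCre libraries alone and 63.7% without Snf5-null TATCre N1. For Snf5-null against SS18-SSX tumours 46.2% of calls were higher, against 55.9% with genotype alone, 55.7% with N31 and N33 summed, 53.9% to 55.7% without 1 SS18-SSX library and 54.8% to 55.4% without 1 Snf5-null Myf5Cre library, or without combined Myf5Cre N1 (55%) or N4 (54.8%). In combined against Snf5-null tumours every network gene but Mga kept its direction with relative log expression scaling and with DESeq2.

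**Figure D4:**
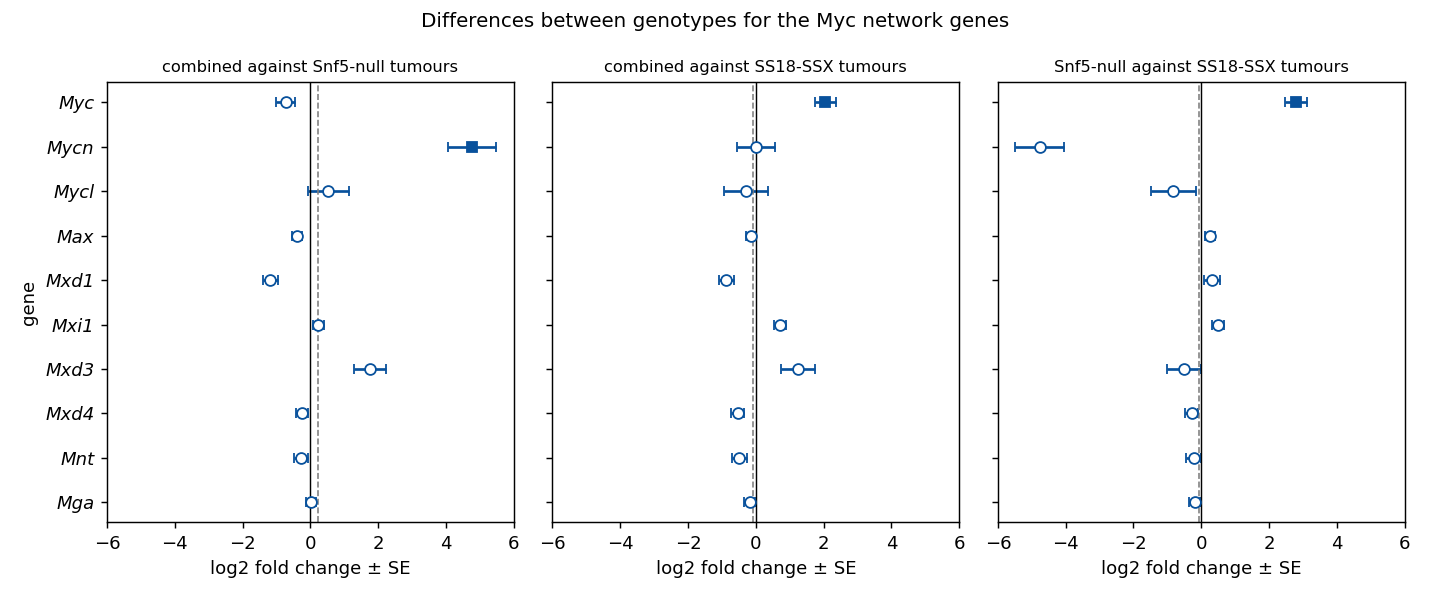
Log2 fold change ± SE of the 10 genes in the 3 genotype comparisons; filled squares mark genes whose ranges did not overlap, open circles those that did, and the dashed line is the median of all tested genes. Mycn lies at 4.76 and -4.77 in the comparisons with Snf5-null tumours and at 0 between combined and SS18-SSX tumours, while Myc lies at 2.05 and 2.79 against SS18-SSX tumours.

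The genes whose level across the 22 libraries was most like that of Myc or Mycn were found by Pearson r of log2 CPM over 18929 genes, as a description. For Myc these were Eif4ebp1 (r = 0.93), a repressor of cap-dependent translation, Cstb (0.928), an inhibitor of cathepsins, Hspa9 (0.9), a mitochondrial chaperone, Ptcd2 (0.894) and Dph5 (0.891), an enzyme of diphthamide synthesis. With group means removed the r values were 0.71, 0.768, 0.548, 0.562 and 0.617 in this order. For Mycn they were the adhesion receptor gene Adgrb2 (r = 0.941), the mesenchymal transcription factor gene Foxf1 (0.922), the ligand gene Wnt6 (0.921), C630043F03Rik (0.921) and Hddc3 (0.921). With group means removed these were 0.793, 0.734, 0.642, 0.774 and 0.619. The points share library, depth and genotype, so the values describe likeness in these tumours only.

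A parallel arm of the network uses the Max-like protein Mlx, which pairs with MondoA (Mlxip) and ChREBP (Mlxipl) and responds to glucose-derived metabolites. Mlx rose in combined tumours, with 57.5 ± 19.8 CPM against 28.2 ± 6.81 in SS18-SSX tumours (SD, n = 8 and 6; log2 fold change 1.02 ± 0.23, adjusted p = 0.00165). Against Snf5-null tumours (36.2 ± 7.62 CPM, n = 8) Mlx also passed (0.67 ± 0.21, adjusted p = 0.0135), but not when any of 6 single libraries was left out (adjusted p up to 0.11). Mlxip fell in combined tumours against Snf5-null (-0.6 ± 0.22, adjusted p = 0.0283) and SS18-SSX tumours (-0.69 ± 0.23, adjusted p = 0.0203), with 29.1 ± 9.26 CPM in combined, 42.9 ± 14 in Snf5-null and 47.5 ± 13.1 in SS18-SSX tumours. Those calls were lost without any of 4 and of 3 single libraries (adjusted p up to 0.0789 and 0.0745). Mlxipl was low throughout and lower in Snf5-null than in SS18-SSX tumours (1.38 ± 0.746 and 5.64 ± 2.57 CPM, -2.06 ± 0.46, adjusted p = 0.00133). Its call between combined and Snf5-null tumours (1.18 ± 0.43, adjusted p = 0.0296) was lost without any of 12 single libraries (adjusted p up to 0.133).

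Txnip, a direct target of MondoA and ChREBP that restrains glucose uptake, fell in combined tumours. It averaged 265 ± 137 CPM in combined and 557 ± 134 CPM in Snf5-null tumours (SD, n = 8 each; log2 fold change -1.03 ± 0.26, adjusted p = 0.00307). Against SS18-SSX tumours, at 498 ± 206 CPM (n = 6), it fell by 0.84 on the log2 scale (SE 0.27, adjusted p = 0.0164). Arrdc4, another target, had 49.2 ± 14.4 CPM in combined, 35.5 ± 10.7 in Snf5-null and 44.7 ± 17.2 in SS18-SSX tumours. It passed only between combined and Snf5-null tumours (0.52 ± 0.21, adjusted p = 0.0432) among the 3 genotype comparisons, and not when any of 14 single libraries was left out (adjusted p up to 0.295). Pklr, the target best known from liver, did not pass the filter on low counts.

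Genes widely described as activated by Myc were examined in 2 lists, 30 genes of ribosome biogenesis and 27 of metabolism and growth. In combined against SS18-SSX tumours 25 of the 30 ribosome biogenesis genes rose and 1 fell, where 23.1% of all tested genes were called higher and 21.9% lower, and their median log2 fold change was 1.02 against -0.09 over all tested genes. The strongest were Mrto4 (2.7 ± 0.41, adjusted p = 8.47e-05) and Nip7 (2.64 ± 0.42, adjusted p = 0.000122), both factors of the large ribosomal subunit. Mrto4 stood at 72.8 ± 40 CPM in combined and 11.6 ± 4.35 CPM in SS18-SSX tumours (SD, n = 8 and 6). Tcof1, the treacle gene of ribosomal RNA transcription, was the gene that fell (-0.57 ± 0.15, adjusted p = 0.00497).

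Of the metabolism and growth genes 23 of 27 rose and 2 fell in combined against SS18-SSX tumours, with a median of 1.18. Tfrc, the transferrin receptor, averaged 277 ± 127 CPM in combined and 32.5 ± 24.3 CPM in SS18-SSX tumours (3.17 ± 0.44, adjusted p = 4.6e-05). Hspe1, a mitochondrial cochaperone, rose by 2.77 ± 0.43 (adjusted p = 9.82e-05). The genes that fell were Ccnd2, a cyclin of the start of the cell cycle (-1.4 ± 0.32, adjusted p = 0.002), and Tert, the telomerase catalytic subunit (-1.34 ± 0.24, adjusted p = 0.000304). Leaving out any single library moved the counts of rising genes between 23 and 26 for ribosome biogenesis and between 19 and 25 for metabolism and growth. The lists were chosen with earlier results of these data known, and markers of dividing cells moved with them: 9 of 12 rose and 0 fell in combined against SS18-SSX tumours, with a median of 1.39, and their sums were at 1180 to 3990 CPM in combined and 265 to 1700 CPM in SS18-SSX libraries. Their part in the target lists was not tested.

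In Snf5-null against SS18-SSX tumours fewer of these genes passed than in combined against SS18-SSX tumours. Of the ribosome biogenesis genes 11 of 30 rose and 0 fell (median 0.52), where 22.3% of all tested genes were called higher, led by Gnl3, the nucleostemin gene (1.78 ± 0.32, adjusted p = 0.000186), and Mrto4 (1.5 ± 0.39, adjusted p = 0.00408). Of the metabolism and growth genes 12 of 27 rose and 2 fell (median 0.61). Tfrc rose by 3 ± 0.44 (adjusted p = 3e-05), with 251 ± 246 CPM in Snf5-null and 32.5 ± 24.3 CPM in SS18-SSX tumours, and Eif4ebp1 by 2.93 ± 0.28 (adjusted p = 5.95e-07). Ccnd2 and Tert again fell (-2.78 ± 0.34, adjusted p = 6.84e-06, and -2.24 ± 0.25, adjusted p = 2.85e-06). Whether these counts differ from those in combined tumours was not tested, since the comparisons share SS18-SSX libraries. The ribosome biogenesis count was 7 without Snf5-null TATCre N1, 17 without Snf5-null Myf5Cre N30 or without SS18-SSX library B, and 18 without combined Myf5Cre N1.

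Between combined and Snf5-null tumours the target lists gave counts that depended on single libraries. There 9 of 30 ribosome biogenesis genes rose and 1 fell (median 0.49 against 0.23 over all tested genes), and 15 of 27 metabolism and growth genes rose and 1 fell (median 0.69). Of all tested genes 29.1% were called higher there, so the ribosome biogenesis count is near the share over all genes. Nip7 (1.29 ± 0.37, adjusted p = 0.00781), Mrto4 (1.21 ± 0.35, adjusted p = 0.00924) and Hspe1 (1.1 ± 0.37, adjusted p = 0.0192) were among those higher. All 3 calls were lost without Snf5-null Myf5Cre N30 (adjusted p up to 0.0541, 0.0616 and 0.113 in this order), and that of Hspe1 also without Snf5-null Myf5Cre N31 or combined Myf5Cre N4. Ccnd2 rose (1120 ± 706 CPM in combined and 478 ± 272 CPM in Snf5-null tumours, n = 8 each, 1.38 ± 0.31, adjusted p = 0.0016). Eif4ebp1, the gene most like Myc, fell (23.7 ± 6.52 and 49.6 ± 21.6 CPM, -1.12 ± 0.23, adjusted p = 0.000778). The call of Tcof1 (-0.38 ± 0.14, adjusted p = 0.0308) was lost without any of 9 single libraries. The ribosome biogenesis count was 0 without Snf5-null Myf5Cre N30, 2 without Snf5-null Myf5Cre N31 or N33, combined Myf5Cre N4 or SS18-SSX library B, 3 to 5 without any other SS18-SSX library, and 21 without Snf5-null TATCre N1 or combined TATCre N49. The metabolism and growth count was 4 without Snf5-null Myf5Cre N30 and 8 without Snf5-null Myf5Cre N31 or combined Myf5Cre N4. It was 9 without Snf5-null Myf5Cre N33 or SS18-SSX library A, B or N2 of the group with no Cre stated. No SS18-SSX library is part of this comparison, yet without any 1 of them the median over all tested genes was 0.097 against 0.23. With relative log expression scaling that median was 0.12, and with DESeq2 it was 0.074. The list counts under those 2 settings are not given here.

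**Figure D5:**
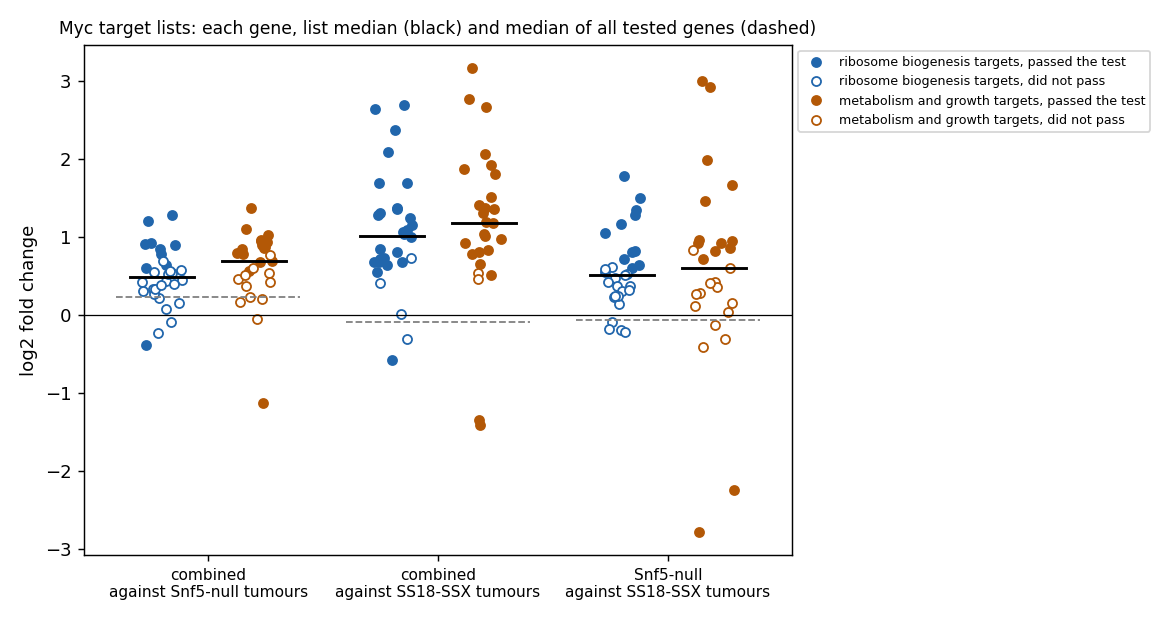
Log2 fold change of each gene of the 2 Myc target lists in the 3 genotype comparisons; filled points passed the test and open points did not, black lines are list medians and dashed lines the median of all tested genes. List medians lie at 1.02 and 1.18 in combined against SS18-SSX tumours and at 0.49 and 0.69 in combined against Snf5-null tumours.

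Proteins that Myc or the Mxd factors bind on chromatin were examined as a list of 17 genes. In combined against Snf5-null tumours 7 rose and 1 fell, and in combined against SS18-SSX tumours 4 rose and 1 fell. In Snf5-null against SS18-SSX tumours 1 rose and 1 fell. Over all tested genes the shares called higher and lower were 29.1% and 20.5%, 23.1% and 21.9%, and 22.3% and 25.9% in this order. The 4 of 17 that rose in combined against SS18-SSX tumours are near that share. The medians were 0.3, 0.17 and -0.29, beside 0.23, -0.09 and -0.06 over all tested genes. Hdac1, a histone deacetylase of the Sin3 complex, averaged 44.2 ± 14.1 CPM in combined, 16.3 ± 5.73 in Snf5-null and 15.1 ± 5.67 in SS18-SSX tumours (SD, n = 8, 8 and 6). It rose in combined against Snf5-null (1.39 ± 0.23, adjusted p = 9.36e-05) and SS18-SSX tumours (1.63 ± 0.25, adjusted p = 8.9e-05). Ruvbl2, an ATPase of the TIP60 complex, rose in combined against SS18-SSX tumours (1.32 ± 0.3, adjusted p = 0.00181) and Snf5-null tumours (1.02 ± 0.28, adjusted p = 0.00562, lost without Snf5-null Myf5Cre N30, when it was 0.0512). Ncor1, a nuclear corepressor, was lower in Snf5-null than in SS18-SSX tumours (203 ± 43.4 and 372 ± 76 CPM, -0.83 ± 0.18, adjusted p = 0.00122). Ccnt1, the cyclin of the elongation factor P-TEFb, was higher in Snf5-null than in SS18-SSX tumours (0.49 ± 0.18, adjusted p = 0.0282), and its call between combined and Snf5-null tumours (-0.4 ± 0.16, adjusted p = 0.0493) was lost without any of 9 single libraries.

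Myc proteins are short-lived, and 9 genes of their turnover were examined. In combined tumours 3 rose and 1 fell against each of the other genotypes, and in Snf5-null against SS18-SSX tumours 1 rose and 2 fell. These counts are near the shares over all tested genes (29.1% higher and 20.5% lower, 23.1% and 21.9%, and 22.3% and 25.9% in the order combined against Snf5-null, combined against SS18-SSX and Snf5-null against SS18-SSX), as far as 9 genes can show. Skp2, a ubiquitin ligase subunit that acts on Myc, averaged 60.5 ± 24.2 CPM in combined, 21.3 ± 10.5 in Snf5-null and 18.2 ± 7 in SS18-SSX tumours (SD, n = 8, 8 and 6). It rose in combined against Snf5-null (1.47 ± 0.3, adjusted p = 0.000719) and SS18-SSX tumours (1.73 ± 0.33, adjusted p = 0.000495). Aurka, a mitotic kinase that shields N-Myc from degradation, rose in combined against Snf5-null (1.38 ± 0.44, adjusted p = 0.0139, lost without Snf5-null Myf5Cre N30 or N31) and SS18-SSX tumours (1.41 ± 0.47, adjusted p = 0.0203, lost without SS18-SSX library A). Both genes are also expressed in dividing cells, whose markers are given beside Mxd3. Usp28, a deubiquitinase of Myc, fell in combined against Snf5-null tumours (-0.67 ± 0.19, adjusted p = 0.00659). Usp36, a nucleolar deubiquitinase, fell in combined (-0.45 ± 0.15, adjusted p = 0.0209) and Snf5-null against SS18-SSX tumours (-0.54 ± 0.15, adjusted p = 0.00689), calls lost without any of 3 and of 5 single libraries. Huwe1, a large ubiquitin ligase, was lower in Snf5-null than in SS18-SSX tumours (-0.52 ± 0.2, adjusted p = 0.0393), a call lost without any of 13 single libraries.

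Of 7 genes widely described as repressed by Myc or N-Myc, 2 rose and 2 fell in combined against Snf5-null tumours. In combined against SS18-SSX tumours 1 rose and 0 fell, and in Snf5-null against SS18-SSX tumours 2 rose and 1 fell. Over all tested genes the shares called higher and lower were 29.1% and 20.5%, 23.1% and 21.9%, and 22.3% and 25.9% in this order. The counts are near those shares, as far as 7 genes can show. Cdkn1a, the gene of a cell cycle inhibitor, averaged 65.9 ± 45.2 CPM in combined, 104 ± 10.6 in Snf5-null and 31.7 ± 14.5 in SS18-SSX tumours (SD, n = 8, 8 and 6). It rose in Snf5-null against SS18-SSX tumours (1.73 ± 0.31, adjusted p = 0.000221) and fell in combined against Snf5-null tumours (-0.84 ± 0.28, adjusted p = 0.0183). In combined against SS18-SSX tumours it rose by 0.89 ± 0.3 (adjusted p = 0.0221, lost without SS18-SSX N428 or SS18-SSX N2). Cdkn2b, the gene of another such inhibitor, fell in combined against Snf5-null tumours (-1.07 ± 0.29, adjusted p = 0.00518) and rose in Snf5-null against SS18-SSX tumours (1.01 ± 0.31, adjusted p = 0.0123). Cdkn1b, also a cell cycle inhibitor gene, rose in combined against Snf5-null tumours (201 ± 55.6 and 111 ± 23.4 CPM, 0.86 ± 0.22, adjusted p = 0.00413). Its call in Snf5-null against SS18-SSX tumours (-0.62 ± 0.24, adjusted p = 0.0355) was lost without any of 10 single libraries, and that of Gadd45b in combined against Snf5-null tumours (0.76 ± 0.3, adjusted p = 0.0443) without any of 14.

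Markers of other cells moved with genotype. Beside them, 29.1% of all tested genes were called higher and 20.5% lower in combined against Snf5-null tumours. These shares were 23.1% and 21.9% in combined against SS18-SSX and 22.3% and 25.9% in Snf5-null against SS18-SSX tumours. Of 15 leucocyte markers 14 fell in combined against Snf5-null tumours and 0 rose, 5 fell in combined against SS18-SSX tumours, and 10 rose in Snf5-null against SS18-SSX tumours. Itgam, the myeloid integrin, averaged 1.07 ± 0.613 CPM in combined, 61.6 ± 31.7 in Snf5-null and 1.34 ± 0.955 in SS18-SSX tumours (SD, n = 8, 8 and 6). No leucocyte, muscle, fibroblast or endothelial marker was at 0 in every library of a genotype, though T and B cell markers in combined tumours were near it, such as Cd3g at 0.132 ± 0.292 CPM. Of 12 markers of dividing cells 6 rose in combined against Snf5-null, 9 in combined against SS18-SSX and 2 in Snf5-null against SS18-SSX tumours, and 0 fell in any of these. The first of these counts was 0 without Snf5-null Myf5Cre N30 or N31, 1 without combined Myf5Cre N4, 2 without Snf5-null Myf5Cre N33 and 10 without Snf5-null TATCre N1 or combined TATCre N49. It was 3 without combined Myf5Cre N3, combined TATCre 78777, SS18-SSX Myf5Cre N428 or SS18-SSX library A, B or N2 of the group with no Cre stated.

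Of 10 markers of mature skeletal muscle 7 fell in combined against Snf5-null tumours, where the sum ran from 159 to 1760 CPM in combined and from 96.8 to 18600 CPM in Snf5-null libraries. That count was 0 without Snf5-null Myf5Cre N30. In combined against SS18-SSX and in Snf5-null against SS18-SSX tumours 0 muscle markers passed, with SS18-SSX sums of 2.42 to 8260 CPM. Of 10 fibroblast markers 6 fell and 2 rose in combined against Snf5-null, 2 fell in combined against SS18-SSX, and 2 rose and 2 fell in Snf5-null against SS18-SSX tumours. Of 8 endothelial markers 1 rose and 2 fell, 2 fell, and 1 fell in the same order. The endothelial counts, and the fibroblast counts against SS18-SSX tumours, are near the shares over all tested genes, as far as so few genes can show. In bulk tumour RNA fewer cells of a type and less RNA per cell cannot be told apart. The part that host cells play in the levels of the network genes was not tested.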

How the data were processed

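RNA from fresh frozen mouse tumours was made into TruSeq stranded mRNA libraries, per the labels' protocols. The authors deposited 1 table of raw read counts per gene for 22 libraries. Per the submitters' processing notes the tools were cutadapt, STAR 2.7.5a, featureCounts, RSEM and DESeq2, with mm10. Libraries were grouped by genotype and Cre label. IDs matched GENCODE M21 for 48058 of 48440 (0.034% of counts unmatched), and 18929 genes passed edgeR's filterByExpr (minimum count 10, total 15). One quasi-likelihood model over the 6 groups (edgeR 4.0.16, R 4.3.3, TMM scaling) gave genotype contrasts as averages over groups, called at an adjusted p of 0.05 (Benjamini-Hochberg). Means ± SD are over libraries and intervals for 0 counts cover counting error only. The fit was tested on simulated data. Alternatives were RLE scaling, DESeq2 1.42.0, no filter, genotype alone, 1 Cre label alone, summed libraries and leaving out each library. The members and lists, and the rule naming the most strongly changed genes of each list, were chosen with earlier results of these data known. Some genes counted in the lists are not reported here by name.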

Additional observations from a re-analysis of the deposited data

Results flagged for a closer look

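In 3 of 30 sets of 1 gene in 1 group of 4 or 5 libraries, 1 library lay far from the others. For normally distributed values the limit used is passed in about 1 in 20 sets. The values here were CPM without a log scale, for which that share need not hold. Mycl in Snf5-null TATCre N1 was at 34.4 CPM, with the next library at 4.93 CPM, a gap of 0.941 of the range (limit 0.71 for 5 libraries). Mxi1 in combined Myf5Cre N1 was at 118 CPM, with the next at 74 CPM, a gap of 0.892 of the range (above the limit for 4 libraries). Mga in Snf5-null TATCre N51 was at 278 CPM, with the next at 195 CPM, a gap of 0.719 of the range (limit 0.71).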

How the results depend on the processing

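No paired analysis was possible because the replicate numbers only name samples and the title tags share at most 1 number between groups. Among the 10 genes the direction of small differences turned most with 1 Cre label alone. With TATCre libraries alone combined against Snf5-null tumours gave -0.74 for Mycl, -0.36 for Mxi1 and 0.04 for Mnt. With Myf5Cre libraries alone Snf5-null against SS18-SSX tumours gave -0.24 for Max, 0.48 for Mxd3 and 0.63 for Mnt. Between combined and Snf5-null tumours 9383 genes were called in all, 5696 with Myf5Cre libraries alone and 3419 with TATCre libraries alone, fits with fewer samples. With TATCre libraries alone the log2 fold change of combined against Snf5-null tumours turned to -0.03 for Arrdc4, 0.08 for Cdkn2b, -0.13 for Pdgfra and 0.56 for Myf5, and without single libraries Myf5 ran from -7.12 (without combined TATCre 78780) to 0.6 (without Snf5-null TATCre N1). For combined against SS18-SSX tumours Arrdc4 was -0.02 without the filter, and Ss18 was -0.06 with Myf5Cre libraries alone. For Snf5-null against SS18-SSX tumours with Myf5Cre libraries alone Mxi1 was -0.13, Mlxip 0.4, Txnip -0.46 and Usp36 0.11. There Mlxip was 0.13 with N31 and N33 summed and ran from -0.19 to 0.17 without single libraries, and Arrdc4 ran from -0.45 to 0.01, the highest without SS18-SSX Myf5Cre N460. The cause was not tested. Depth limits Mycn most, with at most 5 counts in each Snf5-null Myf5Cre library.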
